A study of Rattus norvegicus with 6 samples.

Results

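The endothelin system of cultured neonatal rat ventricular cardiomyocytes (NRVCs) was examined as 7 genes, the ligands Edn1, Edn2 and Edn3, the receptors Ednra and Ednrb, and the converting enzymes Ece1 and Ece2. The members were named as a family, and a probe belonged to a member where its accession is that of the gene in the rat gene table. This gave 9 probes out of 45572 with values on all arrays, for 7 of 16575 gene symbols. Each gene was represented by its brightest probe, that is the one with the highest mean signal over the 6 arrays. The family was taken up with the lower Edn1 signal in these data already known, so that the values of Edn1 are a description.

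Endothelins are short peptides that are cut out of long precursors. Furin-like proteases first release an inactive intermediate, and a converting enzyme then makes the active peptide, which acts on 2 G protein-coupled receptors. In the heart, endothelin-1 comes chiefly from endothelial cells, and also from cardiomyocytes, fibroblasts and macrophages. Endothelin-1 is a strong inducer of hypertrophy and extracellular signal-regulated kinase (ERK) phosphorylation in cultured NRVCs, and the study used it as a positive control for kinase phosphorylation.

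NRVCs were prepared from ventricles of 8 to 10 Sprague-Dawley rats aged 1 to 2 days, with a pre-plating step, which is commonly used to deplete cells that attach early. Control cultures (n = 3) were kept in control medium, and C3a cultures (n = 3) received recombinant C3a, the anaphylatoxin released from C3, at 0.5 µg/ml for 12 h. No genetic change or other agent separated the groups. The records describe a serum-free medium, whereas the methods describe a short starvation in low serum. Cy3-labelled RNA of each culture was read on a separate 1-colour Agilent rat array. The records give replicate numbers but do not say whether these are separate cell preparations, so that p-values measure only the spread between these samples, which may be technical.

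All 6 arrays lay on 1 slide, with control and C3a arrays in separate areas of it, so that position and treatment cannot be told apart. Control replicate 1 stood apart from the rest. Its median local background was 47 intensity units, against 23 to 24 on the other arrays, and 38.6% of its probes were well above background by the scanner software, against 53.7% to 57.3%. No spot was saturated. All 13 cardiomyocyte marker genes, such as Myh6 and Actc1, passed the filter on dim probes. Levels are log2 signals from which the 75th percentile of each array was subtracted, and a difference in level is C3a minus control on that scale. A signal depends on the sequence of its probe, so that levels are compared between arrays and not between genes. In these mixed cultures, fewer cells of a type and less RNA per cell cannot be told apart.

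Of the 7 genes, Edn1, Ednra, Ece1 and Ece2 were tested, along with 23438 probes in all that stood well above background throughout the control or the C3a group. Edn2, Edn3 and Ednrb had none. Of the 4 tested genes, 0 passed an adjusted p of 0.05 in limma, where 0% of all probes did. At an unadjusted p under 0.05, 1 of the 4 (Ece1) was higher with C3a and 1 (Edn1) was lower, where 3.34% of all tested probes were higher and 2.48% were lower. Of the 5767 probes well above background on 2 controls and all 3 C3a arrays, as both were, 8.38% were higher and 3.17% lower. Edn1 was known to be lower beforehand, and Ece1 entered the test through its higher group, so that these counts are a description. Of all tested probes, 8.04% had all 3 C3a arrays above all 3 controls, as Ece1 did, and 4.46% had all of them below, as Edn1 did. The unadjusted test of the methods called 1 of the 4, Edn1, where it called 1108 of all 23438 probes, 752 higher and 356 lower.

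**Figure D1:**
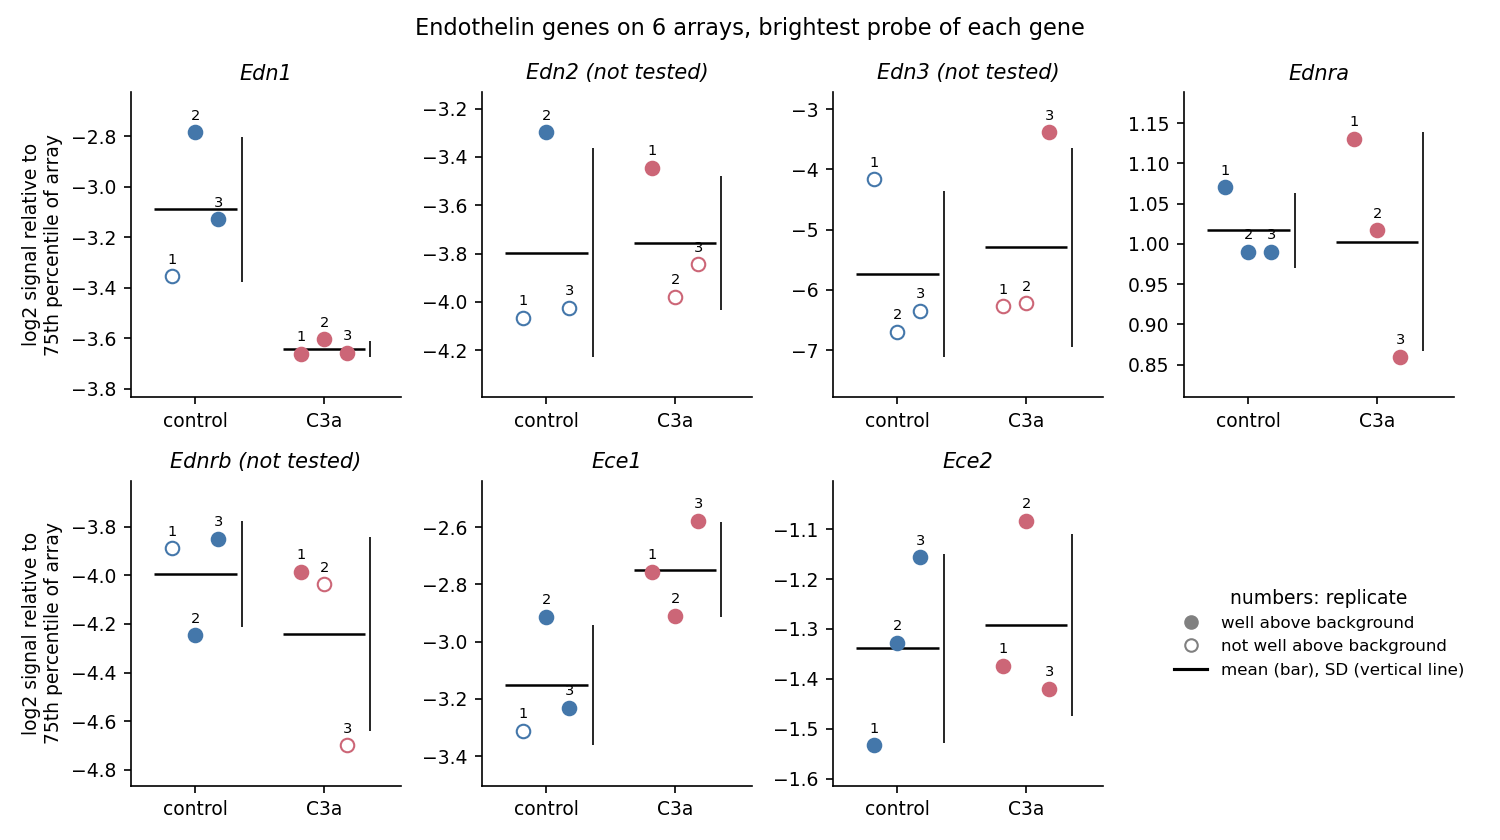
Signal of the brightest probe of each endothelin gene on the 6 arrays, log2 with the 75th percentile of each array at 0 (y axis, a separate scale for each gene), for 3 control and 3 C3a arrays numbered by replicate. Filled points were well above background, bars are means and vertical lines are SDs. The C3a arrays lie below all controls for Edn1 and above all of them for Ece1, and the groups overlap for the other genes.

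Edn1 encodes preproendothelin-1, the precursor of the main cardiovascular endothelin. The gene lies on chromosome 17, 22660799 to 22666687, in the GRCr8 assembly. Part of its promoter is shown because Edn1 had the largest difference of the 4 tested genes and because the transcription factors examined with it are known to act there. The sequence is from RefSeq, GRCr8, chr17:22666788-22666937, minus strand, from 250 to 101 bases before the annotated start of the gene. Capitals mark, in order, a GATA motif, a hypoxia response motif, a variant AP-1 motif and a TATA box.

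Edn1 promoter: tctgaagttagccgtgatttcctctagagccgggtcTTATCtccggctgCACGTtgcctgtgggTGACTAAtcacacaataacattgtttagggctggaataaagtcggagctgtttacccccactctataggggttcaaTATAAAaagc

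Motifs were searched on both strands over the 250 bases before the start. They were chosen with this sequence in view, and no match overlaps another. The GATA motif GATAA, found here on the opposite strand, is in 23.5% of the 33469 rat promoters of this length. The hypoxia response motif ACGTG, also on the opposite strand, is in 16.6% of them. The AP-1 variant TGACTAA is in 1.99% of them, and the TATA box, with the letters TATAAA, is in 12.9%. The AP-1 consensus TGANTCA, held by 6.34% of promoters, is not in this window. A promoter was at hand for 6 of the 7 members, and of these only Edn1 held any of the 5 motifs. These are matches of letters, with no measurement of binding.

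The Edn1 level was -3.35 on control replicate 1, -2.79 on control replicate 2 and -3.13 on control replicate 3. It was -3.66, -3.60 and -3.66 on C3a replicates 1, 2 and 3. The C3a arrays therefore lay close together and below every control, and the spread was in the controls. The mean was -3.09 ± 0.29 (SD, n = 3) on the controls and -3.64 ± 0.032 (SD, n = 3) on the C3a arrays. The difference in level was -0.55 (standard error 0.15, 95% interval -0.91 to -0.20), or 1.47-fold lower with C3a, with an adjusted p of 0.743 from limma, rank 198 of 23438 probes by p. A two-sided exact permutation test gave p = 0.1, the smallest that 3 against 3 arrays allow.

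Edn1 was a dim probe. Its background-corrected signal was 26.7, 53.3 and 30.8 intensity units on the controls and 18.2, 23.7 and 16.4 on the C3a arrays. It was well above background on 2 of 3 controls and on all 3 C3a arrays. The exception was control replicate 1, where the spot had a median signal of 127 units beside a local background of 48.5, before the correction of the scanner software that left 26.7. Without that array the difference in level was -0.68. Normexp background correction with an offset of 50 brought it to -0.17, whereas unnormalized signals gave -0.88 and scaling to spike-in transcripts -1.02.

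Of the other ligands, Edn2 and Edn3 stayed near background. The Edn2 level was -4.06, -3.30 and -4.02 on the controls and -3.44, -3.98 and -3.84 on the C3a arrays, and the groups overlapped. The Edn2 probe was well above background on 1 of 3 controls and 1 of 3 C3a arrays. Edn3, which encodes the ligand best known from the development of neural crest cells, was well above background on C3a replicate 3 alone, with 19.8 intensity units in its single spot. On control replicate 1, where the background was high, it gave 15.3 units, and on the other arrays between 2.98 and 3.86 units. The level on the C3a arrays therefore rested on 1 spot, and neither ligand was tested.

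Ednra encodes the type A receptor, which couples to Gq proteins and is the main endothelin receptor of cardiomyocytes. It was well above background on all 6 arrays, with 376 to 730 intensity units. Its level was 1.07, 0.99 and 0.99 on the controls and 1.13, 1.02 and 0.86 on the C3a arrays. The lowest and the highest array were both C3a arrays, so that the C3a values spanned those of the controls. The mean was 1.02 ± 0.046 (SD, n = 3) on the controls and 1.00 ± 0.14 (SD, n = 3) on the C3a arrays. The difference in level was -0.014 (95% interval -0.26 to 0.23, adjusted p = 0.972 from limma), so that differences within that interval remain possible. No direction is given for Ednra, since its sign turned without control replicate 1 (0.012), without C3a replicate 3 (0.057) and with normexp (0.0023).

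Ednrb encodes the type B receptor, which binds all endothelins alike and also clears endothelin-1. It had 2 probes, and the brighter one was printed on 10 spots of each array. On the controls, 0, 8 and 6 of the 10 spots were well above background on replicates 1, 2 and 3, and on the C3a arrays 5, 4 and 1 of them. The median of the 10 spots was 15.7, 20.0 and 17.5 intensity units on the controls and 15.0, 17.1 and 8.37 units on the C3a arrays. C3a replicate 3 was thus the lowest, and the 5 other arrays lay close to each other. The mean level was -4.00 ± 0.22 (SD, n = 3) on the controls and -4.24 ± 0.40 (SD, n = 3) on the C3a arrays, and the groups overlapped. On no array did the dimmer Ednrb probe stand well above background. At this signal over background a difference in Ednrb was not detectable, which does not show that there was none.

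Ece1 encodes the membrane metalloprotease that converts the endothelin-1 intermediate to the active peptide. Its level was -3.31, -2.91 and -3.23 on the controls and -2.76, -2.91 and -2.58 on the C3a arrays. Every C3a array lay above every control on this scale, but C3a replicate 2 and control replicate 2 were nearly equal. Before scaling the groups overlapped, since control replicate 2 had 48.8 intensity units and the C3a arrays had 34.1, 38.3 and 34.7. The mean was -3.15 ± 0.21 (SD, n = 3) on the controls and -2.75 ± 0.17 (SD, n = 3) on the C3a arrays. The difference in level was 0.40 (standard error 0.14, 95% interval 0.066 to 0.74), or 1.32-fold higher with C3a, with an adjusted p of 0.743 from limma, rank 679 by p. The exact permutation p, two-sided, was again 0.1.

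The Ece1 probe was also dim, and like Edn1 it was well above background on 2 of 3 controls and on all 3 C3a arrays. Ece1 hence entered the test through the group in which it was higher. Of the 5767 probes with the same pattern of detection, 8.81% had all C3a arrays above all controls and 3.43% had all of them below, and at an unadjusted p under 0.05 8.38% were higher and 3.17% lower. In the dimmest part of the tested probes, 5860 in number, 8.84% had all C3a arrays above and 4.01% below. The difference was 0.32 without control replicate 1, 0.27 with normexp and 0.079 without normalization between arrays, and spike-in scaling turned it to -0.069. No normalization and spike-in scaling lower all probes alike. The median difference of all tested probes was -0.28 without normalization and -0.42 with spike-in scaling, beside 0.048 on the main scale.

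Ece2 encodes a related intracellular converting enzyme that is active at acidic pH. All 6 arrays showed its brighter probe well above background. The level was -1.53, -1.33 and -1.16 on the controls and -1.37, -1.08 and -1.42 on the C3a arrays, and the groups overlapped. The mean was -1.34 ± 0.19 (SD, n = 3) on the controls and -1.29 ± 0.18 (SD, n = 3) on the C3a arrays. The difference in level was 0.047 (95% interval -0.29 to 0.38, adjusted p = 0.927 from limma). No direction is given for Ece2, since its sign turned without control replicate 1 (-0.050), without C3a replicate 2 (-0.058), without normalization (-0.28) and with spike-in scaling (-0.43). A dimmer Ece2 probe, well above background on 1 array of each group, was not tested.

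**Figure D2:**
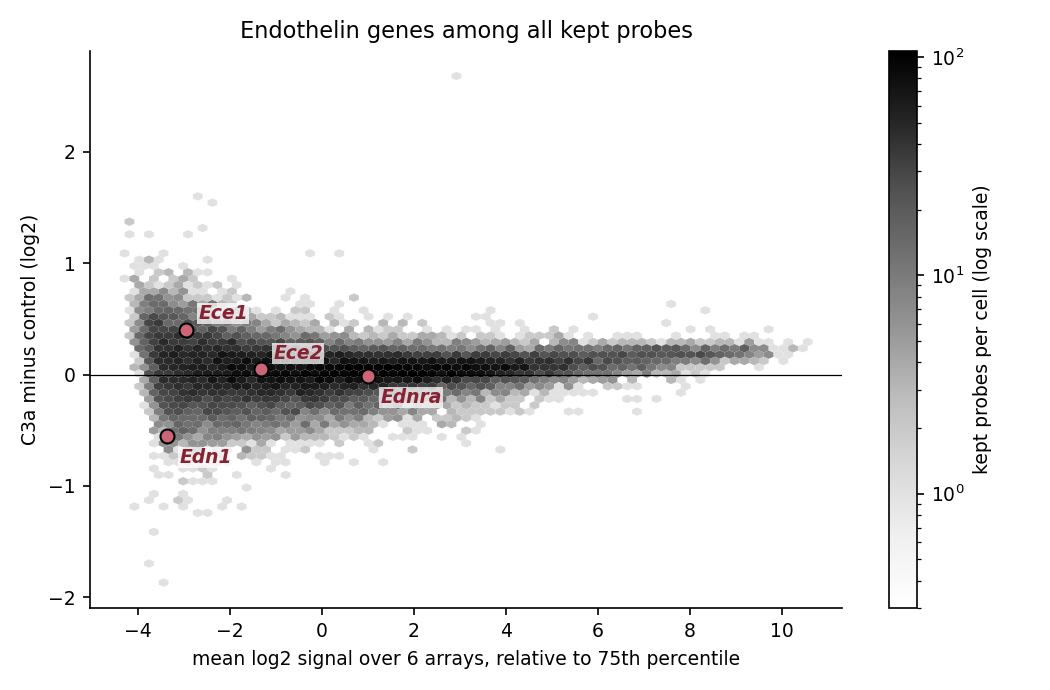
Difference in level, C3a minus control (y axis, log2), against the mean level over the 6 arrays (x axis, log2 relative to the 75th percentile) for all 23438 tested probes, shaded by their number per cell on a log scale, with the 4 tested endothelin genes as red points. Edn1 (-0.55) and Ece1 (0.40) lie in the dim range, where probes scatter most, and Ednra and Ece2 lie near 0.

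Samples with the same replicate number deviated together on these arrays, so that each C3a array was also set against the control of its number. Edn1 was lower with C3a in 3 of 3 pairs, by -0.31, -0.82 and -0.53. Any pairing would give that sign, since all C3a arrays lay below all controls. Ece1 was higher by 0.56 in pair 1 and 0.65 in pair 3, and in pair 2 the difference was 0.0033. The Ece1 difference thus came from 2 of the 3 pairs. Ednra gave 0.060, 0.027 and -0.13, and Ece2 gave 0.16, 0.24 and -0.26, with pair 3 on the other side of 0 for both.

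**Figure D3:**
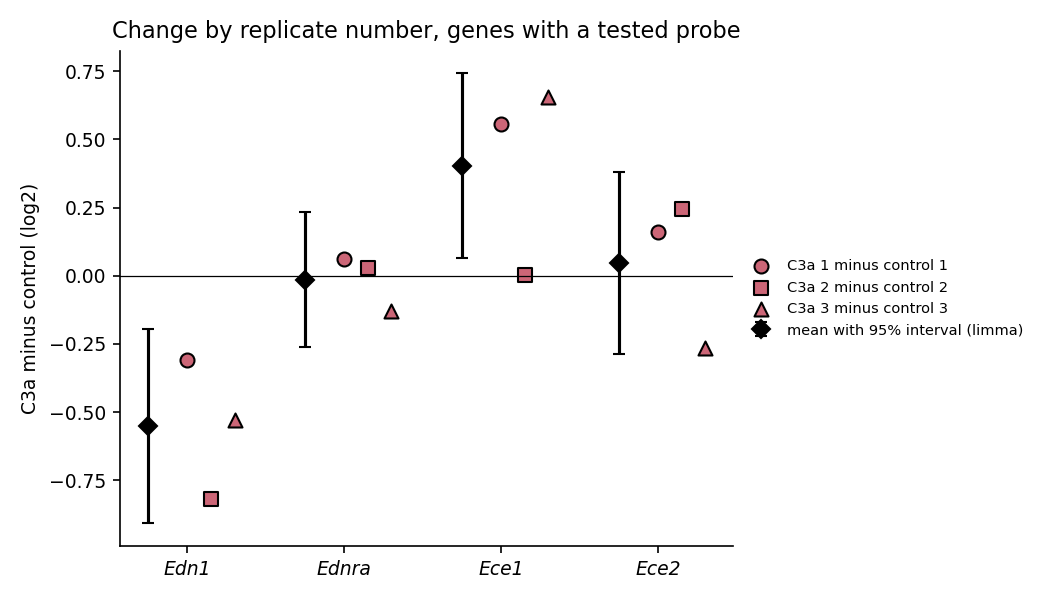
Difference in level (y axis, log2) of the 4 tested genes, with the mean and its 95% interval from limma in black and the difference within each pair of equal replicate number in red. All 3 pairs lie below 0 for Edn1, as they would under any pairing, and pair 2 of Ece1 lies at 0.0033.

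**Figure D4:**
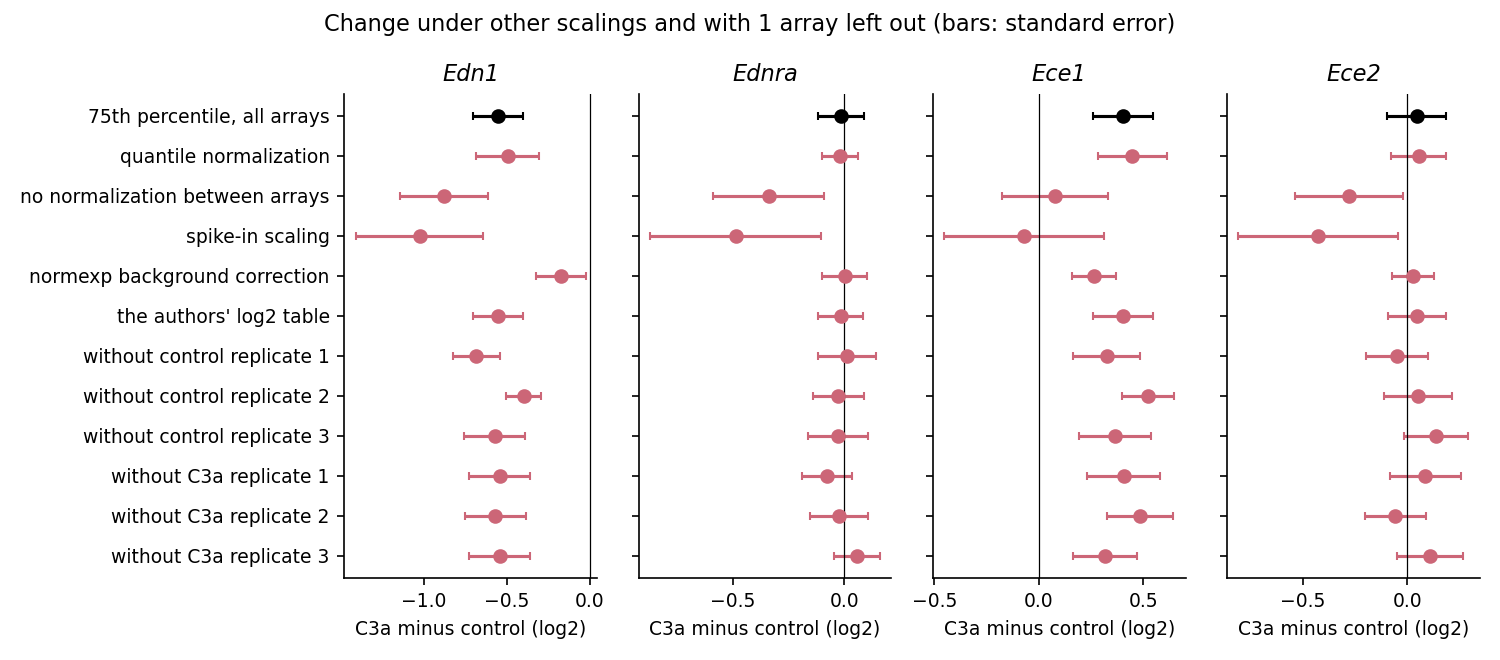
Difference in level (x axis, log2) of the 4 tested genes under other scalings and with each array left out in turn, with bars of 1 standard error. Edn1 stays below 0 throughout, between -1.02 and -0.17, whereas Ece1 falls to -0.069 with spike-in scaling, which lowers all probes alike.

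Genes that make or break down endothelins were examined as a list written from general knowledge. Of 11 genes, 7 were tested, and 0 passed the adjusted threshold in either direction. Their median difference was 0.053, beside 0.036 for all 10390 genes with a tested probe. At an unadjusted p under 0.05, 1 was higher, where 2.91% of all genes were higher and 2.43% were lower. This was Pcsk5, a furin-like protease, with a level of -1.22 ± 0.13 (SD, n = 3) on the controls and -0.92 ± 0.089 (SD, n = 3) on the C3a arrays. Its difference was 0.30 (adjusted p = 0.743 from limma) and turned to -0.025 without normalization and -0.17 with spike-in scaling. The brightest genes of the list were Ctsa, which encodes a lysosomal carboxypeptidase, and Furin, with differences of 0.10 and 0.25 (adjusted p = 0.786 and 0.743 from limma). Both were below 0 without normalization and with spike-in scaling, and Ctsa also with quantile normalization. Mme, which encodes neprilysin, and Mmel1, Kel and Cma1 were not well above background on any array.

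Downstream of the receptors, 28 of 36 signalling genes were tested. Of these, 0 passed the adjusted threshold. The median difference was 0.082, with 19 above 0 and 9 below, where 6299 of all 10390 genes were above and 4091 below. At an unadjusted p under 0.05, 1 of the 28 was lower, the tyrosine kinase gene Src, where 2.43% of all genes were lower. The Src level was -2.11 ± 0.27 (SD, n = 3) on the controls and -2.53 ± 0.22 (SD, n = 3) on the C3a arrays, a difference of -0.42 (adjusted p = 0.743 from limma). The brightest were Mapk3, which encodes ERK1, and the G protein gene Gnai2, with differences of 0.16 and 0.17 (adjusted p = 0.759 and 0.743 from limma), and both differences were below 0 without normalization and with spike-in scaling. With quantile normalization Mapk3 was also below 0, at -0.017.

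Among 18 regulators of Edn1 transcription, 16 were tested and 0 passed the adjusted threshold. Their median difference was -0.00034, with 8 above 0 and 8 below, beside 6299 above and 4091 below among all genes. Where 2.43% of all genes were lower at an unadjusted p under 0.05, 1 of these 16 was lower. This was Nos3, the endothelial nitric oxide synthase gene, whose product restrains Edn1 expression. The Nos3 level was -1.41 ± 0.20 (SD, n = 3) on the controls and -1.81 ± 0.17 (SD, n = 3) on the C3a arrays, a difference of -0.39 (adjusted p = 0.743 from limma). The brightest were Hif1a, of the factor that binds the hypoxia response motif, with a difference of 0.15, and the glucocorticoid receptor gene Nr3c1, with -0.016 (adjusted p = 0.743 and 0.962 from limma). The difference of Hif1a was below 0 without normalization and with spike-in scaling.

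Of 21 genes known to respond to endothelin-1 in cardiomyocytes, 19 were tested and 0 passed the adjusted threshold. Their median difference was -0.030, with 8 above 0 and 11 below, beside 6299 above and 4091 below among all genes. The brightest were the myosin gene Myh7 and Ankrd1, which encodes a stress-responsive sarcomere protein, with differences of 0.16 and -0.18 (adjusted p = 0.749 and 0.743 from limma). That of Myh7 was below 0 with quantile normalization, without normalization and with spike-in scaling. Src, Nos3, Nr3c1 and Ankrd1 lay below 0 under all 4 of these scalings and background settings. No normalization and spike-in scaling lower every gene by the same amount. A gene below 0 therefore stays there, and a gene slightly above 0 turns, whatever its own stability.

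**Figure D5:**
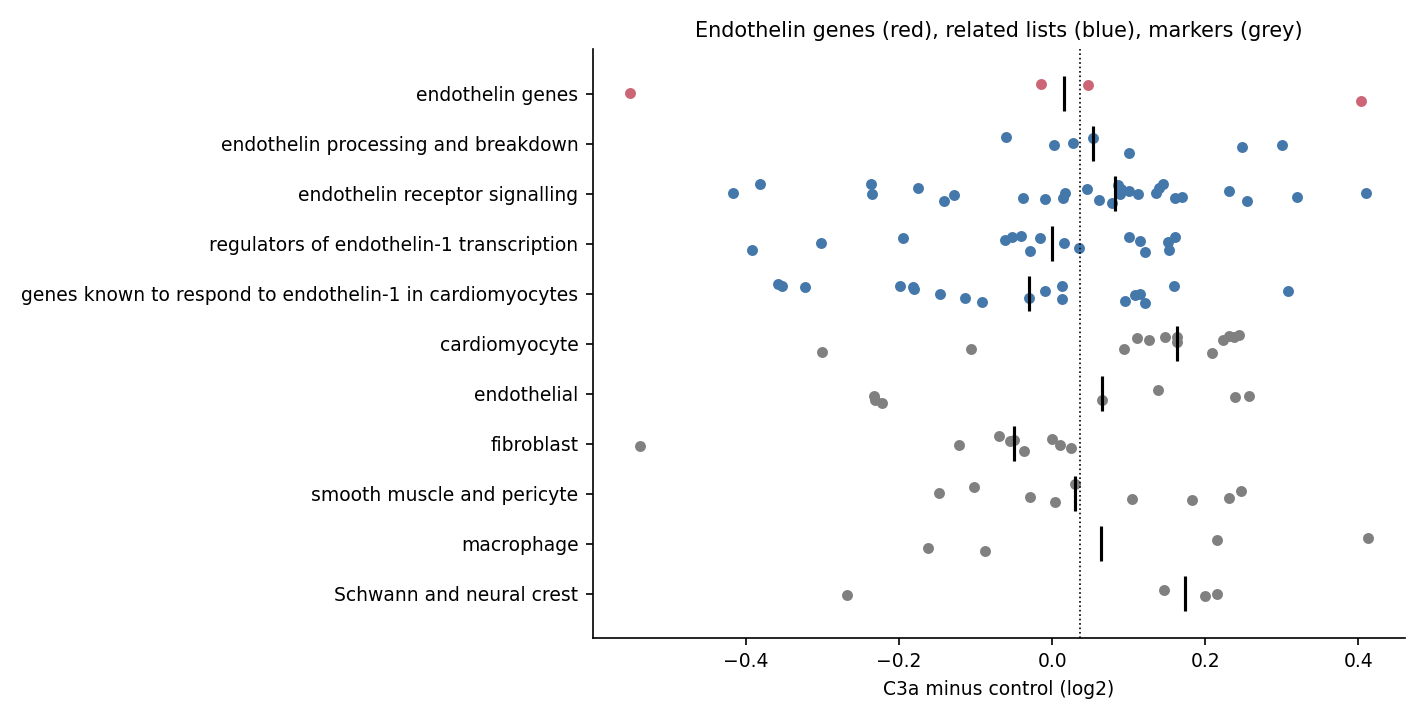
Difference in level (x axis, log2) of the 4 tested endothelin genes (red), the tested genes of 4 related lists (blue) and the tested markers of 6 cell types (grey), each point a gene, with the median of each list as a black line and that of all genes as a dotted line at 0.036. Edn1 (-0.55) lies below every gene of the lists and Ece1 (0.40) near their upper end.

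The 5 genes whose pattern lay closest to that of Edn1 were chosen by the root mean square difference of the centred levels over the 6 arrays, among 10389 genes. They were Armc1, Adgre5, Epn2, Gypc and Plpbp, at distances of 0.064 to 0.10, where the levels of Edn1 themselves varied by 0.32 about their mean and the median distance over all genes was 0.37. Their differences in level lay between -0.49 for Adgre5 and -0.44 for Gypc, as the choice by likeness to Edn1 makes them. With normexp, which also brought Edn1 closer to 0, they were -0.28 for Armc1, -0.079 for Adgre5, -0.044 for Epn2, -0.40 for Gypc and -0.22 for Plpbp. All 5 were highest on control replicate 2, as Edn1 was, with Armc1 at -1.37 there. The choice by likeness to Edn1 favours this as well.

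Markers of the cells that can make endothelin-1 were set beside these values. Among all 10390 genes with a tested probe, 6299 differences were above 0 and 4091 below, with a median of 0.036. Of 10 endothelial markers on the array, 7 were tested, with 4 differences above 0 and 3 below and a median of 0.065. The summed endothelial signal, in multiples of the 75th percentile, was 34.5 to 47.1 on the controls and 43.2 to 54.7 on the C3a arrays. Most of this sum was that of Vwf and Kdr, whose differences were 0.24 and 0.14. Cdh5 and Pecam1 were also above 0, at 0.26 and 0.065, whereas Tek, Esam and Eng were below, at -0.23, -0.23 and -0.22. Cldn5 stayed too dim throughout to count as well above background. For fibroblasts, 9 of 10 markers were tested, 2 above 0 and 7 below, with a median of -0.050 and a summed signal of 108 to 122 on the controls and 106 to 124 on the C3a arrays. At an unadjusted p under 0.05, where 2.43% of all genes were lower, 1 of these 9 was lower. This was Lum, which encodes the matrix proteoglycan lumican and was named after its value was seen. The Lum level was -3.13, -2.72 and -3.25 on the controls and -3.92, -3.23 and -3.57 on the C3a arrays, so that the groups overlapped, and the difference was -0.54 (adjusted p = 0.743 from limma). Of 10 macrophage markers 4 were tested, with 2 differences above 0 and 2 below and a median of 0.063. All 6 arrays showed Lyz2 and Cd68 well above background, and their differences were -0.088 and -0.16. Csf1r and C1qb were well above background on 5 arrays, with differences of 0.41 and 0.21, whereas C1qa, C1qc, Mrc1 and Cd163 were so on none. The summed macrophage signal, most of it that of Lyz2, was 5.84 to 7.45 on the controls and 5.82 to 6.34 on the C3a arrays. Smooth muscle and pericyte markers were all tested, 6 of 9 above 0, with a summed signal of 59.5 to 69.9 on the controls and 65.3 to 68.9 with C3a. Of the 6 Schwann and neural crest markers on the array, 4 were tested, 3 of them above 0, and their summed signal, which was mostly that of Mitf, was 133 to 170 on the controls and 151 to 191 with C3a. The cardiomyocyte markers had 11 of 13 differences above 0, with a median of 0.16, or -0.020 with quantile normalization, and a summed signal of 5292 to 6786 on the controls and 6567 to 7505 with C3a. The part of these cells in the Edn1 and Ece1 values was not tested.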

How the data were processed

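Spot intensity on 6 arrays was deposited as written by Agilent Feature Extraction 11.5.1.1, corrected for background on a linear scale, and a log2 table of 36638 probes. Shifting each array's log2 intensity by its 75th percentile gives that table to within 0.0062 at the median, with column medians of -3.13 to -3.00; the methods name GeneSpring without stating this scaling. Here control spots and spots with an outlier flag were left out, and the spots of a probe were averaged. From log2 signals the 75th percentile of each array was subtracted. A probe was well above background where at least 50% of its spots were. A probe was kept if this held for the 3 controls (17519 probes) or the 3 C3a arrays (23425 probes), giving 23438. Accessions without version numbers were matched to the GRCr8 gene table, which named 21092 of 45572 probes (46.3%). Ednra is also an old synonym of Ednrb there, and only the accession was used.

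The groups were compared with limma 3.58.1 (R 4.3.3), with Benjamini-Hochberg adjustment over all kept probes. The step was tested on simulated arrays. Arrays correlated at r = 0.988 to 0.997 over kept probes, and no array repeated another. Deviations from the group mean correlated at 0.28, 0.32 and 0.31 between samples of equal number and between -0.26 and -0.093 otherwise, so that the numbers were taken as pairs. Their number limits the precision of the arrays. The members, the 4 related lists, the 6 marker lists and the tests were chosen with earlier results of these data known. Named are all members, list genes at an unadjusted p under 0.05 where none passed the adjusted threshold, the 2 brightest genes of each related list and the 5 genes closest to Edn1. A result of the list of endothelin-1 responders is not reported here. Alternatives were quantile normalization, no normalization, spike-in scaling, normexp on the median spot signal (a mean spot signal was not used here), the authors' log2 table, other filters, a variance trend, the replicate block, the unadjusted test of the methods and leaving out each array. A block for slide or scan could not be fitted with 1 slide. Promoters are from RefSeq. Figures were drawn with matplotlib 3.10.9.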

Additional observations from a re-analysis of the deposited data

How the results depend on the processing

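No endothelin gene passed the adjusted threshold in limma under any alternative, and the count of 0 probes over the array held except for 4 in unnormalized signals and 11 with spike-in scaling. The unadjusted test of the methods, which has no correction across genes, called 1108 of 23438 probes, 752 higher and 356 lower. Of the 4 endothelin genes it called 1, Edn1, at -0.55. The median difference of all tested probes was 0.048, but -0.28 without normalization and -0.42 with spike-in scaling. Both settings shift every probe by the same amount. Edn1 therefore stays as far below the median by construction, and Ece1 as far above it. Of the 11 alternatives that can move a difference, Edn1 kept its direction in 11 and Ece1 in 10, the exception being -0.069 with spike-in scaling. Leaving out an array could not turn either sign, since the groups do not overlap for these 2 genes. The authors' log2 table follows the same scaling as the main setting, so that most of these counts were fixed in advance. Ece2 turned to -0.28 without normalization and -0.43 with spike-in scaling, and Ednra to 0.0023 with normexp. Leaving out each array gave -0.68 to -0.40 for Edn1, 0.32 to 0.52 for Ece1, -0.058 to 0.14 for Ece2 and -0.078 to 0.057 for Ednra. The 2 genes at an unadjusted p under 0.05 became 1 with normexp, where Edn1 was lost, and 1, with Ece1 lost, in unnormalized signals, with spike-in scaling, no filter, a variance trend or the test of the methods, and without control replicate 1 or 3 or C3a replicate 1 or 3. With only probes well above background on all 6 arrays, neither gene could be tested. With the replicate block the differences were the same, -0.55 for Edn1 (adjusted p = 0.225 from limma) and 0.40 for Ece1 (adjusted p = 0.341), and no call changed. The mean over all kept probes of a gene was the same value, since each tested gene had 1 kept probe. Apart from what the settings remove by construction, the cause was not tested. Signal over background limits Edn1, Edn2, Edn3, Ednrb and Ece1.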
